A study of Mus musculus with 3 samples.

Results

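The 10 genes described here encode enzymes that build purine and pyrimidine nucleotides from small precursors: Ppat, Gart, Pfas, Paics, Atic, Impdh2, Gmps, Cad, Dhodh and Umps. They were chosen by gene symbol, and all 10 were found among the 17796 genes of the table. The RNA came from spleen T cells of C57BL/6 mice that were activated in culture for 3 days on antibodies against CD3 (2 ug/ml) and CD28 (5 ug/ml) with interleukin 2 (100 IU/ml). The young library, titled Young, came from mice aged 2 months and carries the label vehicle with no stated course. The aged vehicle library, titled Old, came from mice stated as 24 months old that received vehicle 3 times a week for 2 months. The aged fumarate library, titled Old + Fumarate, came from mice of the same stated age given fumarate at 10 mg/kg on that schedule. Fumarate is an intermediate of the tricarboxylic acid cycle. Each group is 1 library, and the labels say neither how many mice it holds nor how the T cells were purified. The values below thus carry no p-value, and no replicate stands behind any difference.

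Dividing cells need nucleotides for DNA and RNA, and resting T cells switch this synthesis on when they are activated. Purines are assembled on phosphoribosyl pyrophosphate (PRPP), a sugar phosphate, until inosine monophosphate (IMP) is formed, from which AMP and GMP are made. Pyrimidines are made as a free ring that is then joined to the same sugar phosphate to give UMP. Fumarate is itself released in purine synthesis, in the steps carried out by adenylosuccinate lyase (Adsl).

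Levels are in CPM, a gene's reads per 1000000 reads of its library. Estimated depth was 41.0 M reads (young), 17.3 M (aged vehicle) and 13.9 M (aged fumarate), where M is 1000000. The 16 T cell markers were all above 0 in each library and summed to 4828 CPM (young), 4307 CPM (aged vehicle) and 5238 CPM (aged fumarate). Markers of other blood cells stood apart in the aged vehicle library. The 16 platelet and erythroid markers summed to 44.3, 1934 and 276 CPM in the same order, led by Itgb3 (30.9, 566 and 99.8 CPM) and Pf4 (3.17, 468 and 51.3 CPM). The 8 basophil and mast cell markers in the table summed to 5.34, 444 and 79.8 CPM, led by Gata2 (0.122, 113 and 16.2 CPM) and Mcpt8 (0.122, 86.7 and 18.9 CPM). The 8 macrophage and monocyte markers summed to 37.4, 70.0 and 37.4 CPM, and the 8 B cell markers to 5.64, 11.01 and 7.43 CPM. Among the highest of these were Ly6c2 (21.1, 26.9 and 31.2 CPM), Mpeg1 (13.4, 18.2 and 1.52 CPM) and Cd79b (1.88, 4.63 and 1.37 CPM). Ly6c2 and Mpeg1 made up most of the macrophage and monocyte sum, and Ly6c2 has a near-identical copy, so its level is uncertain. Of the 6 macrophage and monocyte markers with a mean of at least 1 CPM, 4 were at least 1.5-fold higher in aged vehicle over young, against 16.5% of all genes. None was lower. In aged fumarate over aged vehicle 5 were lower, against 11.2%, and none higher. Taking values under 0.01 reads as 0, C1qb and Csf1r of the macrophage and monocyte markers were at 0 in the young library, and with Adgre1 in the aged fumarate library. Of the platelet and erythroid markers, 1 was at 0 in the young library and Hba-a2 and Alas2 in the aged fumarate library. The part of these other cells in the values below was not tested.

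The nucleotide enzymes differed little between the libraries. In CPM as deposited, though not with scaling to T cell markers, most were lowest in the aged vehicle library, by up to 24.0% of the young level, and none lay past 1.5-fold in any comparison. Added up, the 10 genes stood at 1938 CPM in the young, 1663 CPM in the aged vehicle and 1869 CPM in the aged fumarate library. Paics, Gart, Ppat and Impdh2 had the lowest ratios of aged vehicle over young. Cad, which opens pyrimidine synthesis, and Atic, which closes the path to IMP, were level. These directions depend on the scaling, and the median of the enzymes under each other scaling is given beside each comparison. In bulk RNA, fewer cells of a kind and less RNA per cell cannot be told apart.

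**Figure D1:**
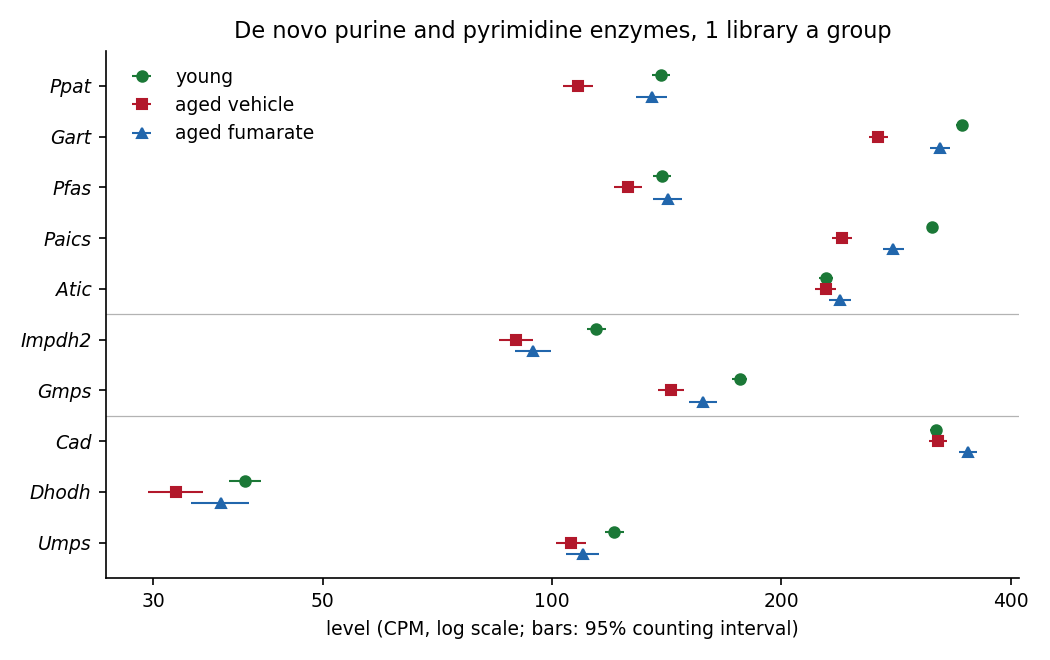
Level of each enzyme in the 3 libraries, in CPM on a log axis, with 95% counting intervals as bars. Grey lines part the enzymes leading to IMP, those leading from IMP to GMP, and those leading to UMP. The young and aged vehicle points of Cad (319 and 321 CPM) and Atic (229 and 229 CPM) coincide, while those of Paics (316 and 240 CPM) are far apart.

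The path to IMP starts with Ppat, the amidotransferase that commits PRPP to purine synthesis and is inhibited by the purine nucleotides it leads to. Ppat (chromosome 5, 76913249 to 76951578, minus strand, mm10) was at 139 CPM in the young, 108 CPM in the aged vehicle and 135 CPM in the aged fumarate library. The aged vehicle library was thus the low one, at 77.8% of the young level, and the other two had overlapping counting intervals. Gart (chromosome 16, 91621186 to 91646952, minus strand), a single protein that carries several of the next steps, was at 345, 268 and 323 CPM in the same order. Its aged vehicle level was 77.6% of the young level.

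Pfas (chromosome 11, 68985697 to 69008460, minus strand), which adds a nitrogen from glutamine, was at 139 CPM in the young, 126 CPM in the aged vehicle and 142 CPM in the aged fumarate library. Paics (chromosome 5, 76951307 to 76967509, plus strand) carries a carboxylation and the step that adds aspartate, ahead of Adsl. It was at 316, 240 and 281 CPM, and its aged vehicle level, 76.0% of the young level, was the lowest such share among the 10 genes. Atic (chromosome 1, 71557150 to 71579631, plus strand), which adds the last carbon and closes the ring to IMP, was at 229, 229 and 239 CPM. Atic thus differed between libraries by less than any other member of this path.

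Ppat and Paics face away from each other on chromosome 5, and their first exons overlap by 272 bases in GENCODE M21. Whether counting used strand is not given in the sources used here, and without it reads from that stretch cannot be told apart. The antisense genes on Gart (Gm15964, at most 5.14 CPM) and Umps (Gm15829, at most 1.74 CPM) had few reads of their own, as did Ndufaf3, which shares 48 exon bases with Impdh2 (at most 12.5 CPM). Paics over Ppat, a ratio within a library that no scaling touches, was 2.27 in the young, 2.22 in the aged vehicle and 2.08 in the aged fumarate library. The interval of the aged vehicle ratio (2.10 to 2.34) overlapped those of both other libraries. The intervals of the young (2.200 to 2.342) and the aged fumarate ratio (1.964 to 2.195) did not overlap each other.

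From IMP, Impdh2 makes XMP, the step that limits guanine nucleotide synthesis and the target of mycophenolic acid, a drug that restrains lymphocytes. The row named Impdh2 (chromosome 9, 108560286 to 108565584, plus strand) held 114 CPM in the young, 89.7 CPM in the aged vehicle and 94.3 CPM in the aged fumarate library. The table also holds Impdh2-ps, a processed pseudogene of it (chromosome 8, 100030558 to 100032102, plus strand), at 334, 254 and 272 CPM. A processed pseudogene is a copy of a messenger RNA pasted back into the genome, without introns. Over the 1545 bases from the start to the stop codon of Impdh2, the 2 sequences in GENCODE M21 differed at 4 bases, an identity of 99.7%. Counted from the A of the start codon, with the base of Impdh2 first, these are C270T, T882C, A891G and C1135T. The longest stretch without a difference was 611 bases. Positions 856 to 915 of the coding strand, which hold 2 of the 4 differences in capitals, show how little there is to assign a read by:
Impdh2: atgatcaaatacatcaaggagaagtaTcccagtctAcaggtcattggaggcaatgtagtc
Impdh2-ps: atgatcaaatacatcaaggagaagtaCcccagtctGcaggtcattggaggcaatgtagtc

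The Impdh2 row held 25.5% of the summed CPM of the 2 loci in the young, 26.1% in the aged vehicle and 25.8% in the aged fumarate library, nearly the same share in each. How reads were divided between the 2 loci is uncertain, and so is the level of Impdh2 taken alone. Their sum was 448 CPM in the young, 344 CPM in the aged vehicle and 366 CPM in the aged fumarate library. The log2 ratio of aged vehicle over young was −0.35 for the Impdh2 row and −0.38 for the sum, and that of aged fumarate over aged vehicle was 0.07 and 0.09. The counting interval of the latter was −0.03 to 0.18 for the row and 0.04 to 0.15 for the sum. The sister enzyme Impdh1, which resting cells also use, was at 96.4, 106 and 90.3 CPM. The Impdh2 row alone was 1.19, 0.847 and 1.04 times the Impdh1 level in the 3 libraries. The sum was 4.65 times the Impdh1 level in the young, 3.24 times in the aged vehicle and 4.06 times in the aged fumarate library, in CPM not corrected for length.

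**Figure D2:**
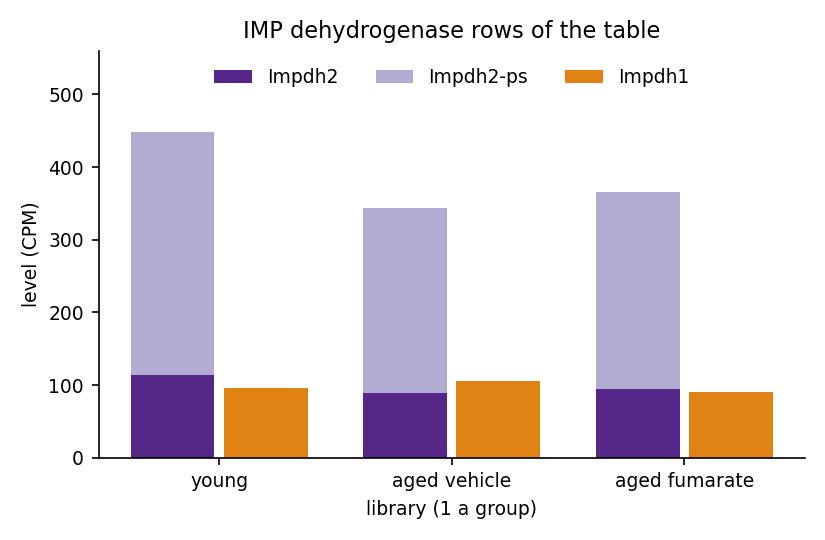
Level in CPM of the Impdh2, Impdh2-ps and Impdh1 rows in the 3 libraries, with Impdh2 and its pseudogene stacked. The pseudogene row is the larger share of each stack (334 of 448 CPM in the young library), and the stack is lowest in the aged vehicle library at 344 CPM.

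Gmps (chromosome 3, 63976106 to 64022579, plus strand), which turns XMP into GMP, was at 176 CPM in the young, 143 CPM in the aged vehicle and 158 CPM in the aged fumarate library. Both aged libraries were below the young one, and their counting intervals did not overlap each other (138 to 149 and 151 to 164 CPM).

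Pyrimidine synthesis opens with Cad, a large protein that joins carbamoyl phosphate synthetase, aspartate transcarbamoylase and dihydroorotase. Cad (chromosome 5, 31054780 to 31078479, plus strand) was at 319 CPM in the young, 321 CPM in the aged vehicle and 352 CPM in the aged fumarate library. The aged fumarate library was the high one, and the other two had overlapping intervals. Dhodh (chromosome 8, 109591343 to 109608673, minus strand), the step that takes place in the mitochondrial inner membrane and passes electrons to ubiquinone, was at 39.6, 32.1 and 36.7 CPM. It had the fewest reads of the 10 genes, between 509 and 1622 a library, and its aged fumarate interval (33.6 to 40.1 CPM) overlapped those of both other libraries. Umps (chromosome 16, 33954782 to 33967038, minus strand), which attaches orotate to PRPP and yields UMP, was at 121, 106 and 110 CPM, with the young library above both aged ones.

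Levels were compared between genes per kilobase of exons merged over the annotated forms of a gene. Which forms these cells use is not known, so the order depends on that choice of length, which the counting intervals do not cover. Paics was the highest row in each library, at 127 CPM per kb in the young, 96.5 in the aged vehicle and 113 in the aged fumarate library. Dhodh was the lowest, at 19.4, 15.7 and 18.0 CPM per kb. In the young library the order from the highest was Paics, Gart, Atic, Impdh2, Cad, Ppat, Umps, Pfas, Gmps and Dhodh, and the counting intervals of Ppat and Umps and of Pfas and Gmps overlapped. In both aged libraries Atic stood above Gart, and in the aged vehicle library Umps stood above Ppat. The intervals of Atic and Gart overlapped in the aged fumarate library (81.1 to 86.8 and 78.7 to 83.4 CPM per kb). Other neighbours with overlapping intervals were Gmps and Dhodh in both aged libraries, and Impdh2 and Cad as well as Ppat and Umps in the aged fumarate library. With the pseudogene row added, Impdh2 would stand at 241, 185 and 197 CPM per kb, above Paics in each library.

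The aged vehicle and young libraries differ in age. They also differ in the stated vehicle course and in the markers of other blood cells, from which age cannot be told apart. Differences are log2 ratios of CPM + 1, with 95% counting intervals of the ratio without the added 1. No member was at least 1.5-fold lower, against 6.73% of the 13750 genes with a mean of at least 1 CPM, and none was at least 1.5-fold higher, against 16.5%. The ratios ran from −0.39 for Paics (interval −0.45 to −0.35) to 0.01 for Cad (−0.04 to 0.05), with a median of −0.30, where the median of those 13750 genes was 0.03. Ppat had a ratio of −0.36, Gart of −0.36, Gmps of −0.30, Dhodh of −0.29, Umps of −0.19, Pfas of −0.15 and Atic of −0.00. The interval lay below 0 for 8 members, against 29.8% of the 13750 genes and 34.5% of the 9624 with a mean of at least 10 CPM, and covered 0 for Atic and Cad. It lay above 0 for none, against 38.1% and 38.4%. Such intervals cover counting error alone, and the spread between mice is unknown.

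The T cell markers also tended lower in the aged vehicle library, with a median of −0.33. Past 1.5-fold lower was 1 of 16, against 6.73% of all genes, Cd2 at 327 CPM in young and 198 CPM in aged vehicle cells. They did not move as a body, since Thy1, the most abundant, was at 752 CPM in young and 988 CPM in aged vehicle cells. The median of the 10 enzymes was −0.35 with TMM, −0.34 with median-of-ratios and −0.39 with upper-quartile scaling. Scaled to the summed T cell markers it was −0.13, with 7 of 10 below 0 and all genes moved up by 0.16. Scaled to the median ratio of those markers it became 0.03, with 4 of 10 below 0 and all genes moved up by 0.31. Ppat, Gart, Paics and Impdh2 stayed below 0 under all 5 scalings and both other added constants tried, and the other 6 members did not. The values of these 4 nearest to 0 were −0.035, −0.038, −0.069 and −0.022. As a scaling moves all genes alike, a kept sign follows from the ratio as deposited and is no separate support. The MYC and S phase list, part of which reads cell division, had a median of −0.47. It ran from −0.70 for Pcna, the DNA polymerase clamp, at 518 (young) and 318 CPM (aged vehicle), to 4.45 for Mycn. Of its 13 genes 2 were at least 1.5-fold lower and 3 higher, against 6.73% and 16.5% of all genes. The part of cell makeup and of division in the ratios of the enzymes was not tested.

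**Figure D3:**
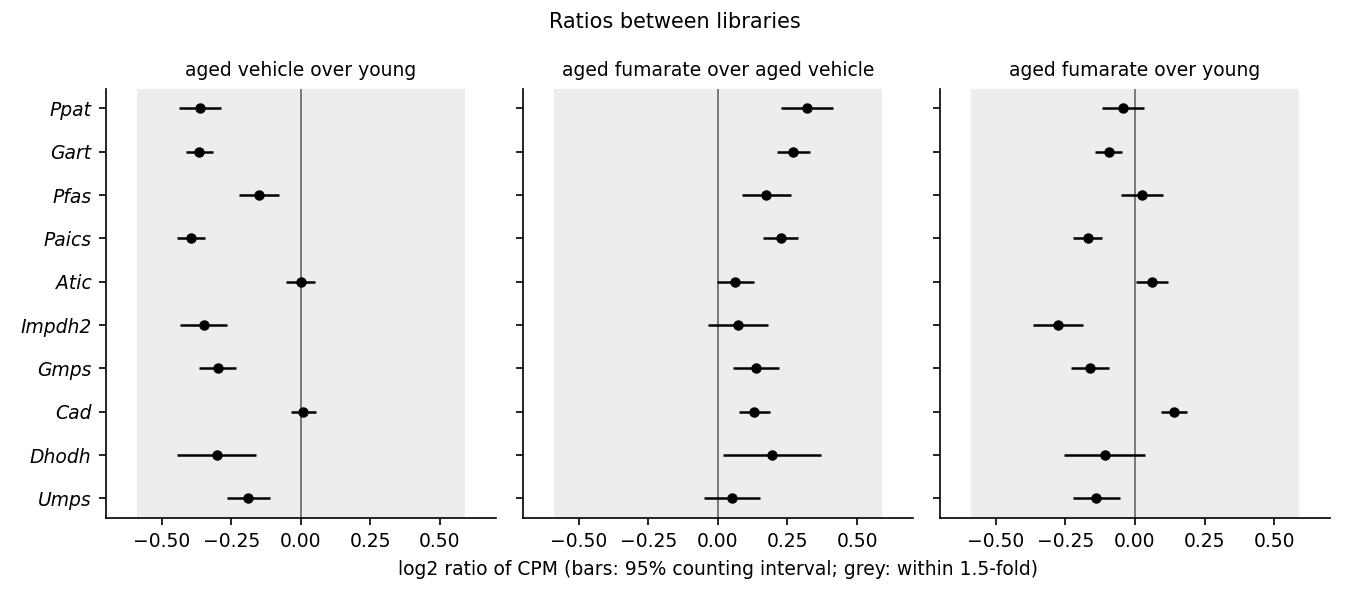
Log2 ratio of CPM for each enzyme in the 3 comparisons, with 95% counting intervals as bars and the range within 1.5-fold in grey. All points lie inside the grey range, with Paics at −0.40 and Ppat at 0.32 the farthest out.

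Ratios between 2 enzymes within a library do not depend on the scaling, and the pairs given here were chosen after their values were seen. Cad over Ppat, the opening enzymes of the pyrimidine and purine paths, was 2.29 in the young (interval 2.22 to 2.37), 2.97 in the aged vehicle (2.81 to 3.13) and 2.60 in the aged fumarate library (2.47 to 2.75). None of the 3 intervals overlapped, and the young library had the lowest ratio. Atic over Ppat was 1.65, 2.11 and 1.77 in the same order, again highest in the aged vehicle library. By path, the summed log2 ratio of aged vehicle over young was −0.27 for the 5 enzymes leading to IMP, −0.32 for Impdh2 and Gmps, and −0.06 for the 3 enzymes leading to UMP (interval −0.10 to −0.02). The last sum is mostly Cad (319 of 479 CPM in the young library, ratio 0.01), while Dhodh (−0.29) and Umps (−0.19) were lower.

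The aged fumarate and aged vehicle libraries differ in the fumarate given to aged mice. They also differ in the markers of other blood cells, from which fumarate cannot be told apart. No member was at least 1.5-fold higher, against 2.15% of the 13750 genes, and none was at least 1.5-fold lower, against 11.2%. The ratios ran from 0.05 for Umps (interval −0.05 to 0.15) to 0.32 for Ppat (0.23 to 0.41), with a median of 0.15 against −0.02 for all genes. Gart had a ratio of 0.27, Paics of 0.22, Dhodh of 0.19, Pfas of 0.17, Gmps of 0.14, Cad of 0.13, Impdh2 of 0.07 and Atic of 0.06. The interval lay above 0 for 7 members, against 18.2% of the 13750 genes and 22.8% of the 9624, and covered 0 for Atic, Impdh2 and Umps. It lay below 0 for none, against 26.4% of either set.

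The median of the enzymes was 0.20 with TMM, 0.19 with median-of-ratios and 0.22 with upper-quartile scaling. The T cell markers had a median of 0.21 in this comparison, and with scaling to their median ratio the enzymes' median became −0.02 and that of all genes moved down by 0.17. With scaling to the summed T cell markers, of which Thy1 was the highest at 988 and 1453 CPM with Lck at 418 and 578 CPM, the median was −0.13 and all genes moved down by 0.27. Only Ppat stayed above 0 under all 5 scalings and both other constants, with a lowest value of 0.039. As a scaling moves all genes alike, this follows from Ppat having the highest ratio as deposited. This comparison and that of aged vehicle over young share the aged vehicle library, so the values of the members in the 2 comparisons are not independent of each other.

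Between aged fumarate and young, no member was at least 1.5-fold lower, against 6.79% of genes, or higher, against 10.5%. The median ratio was −0.10, where that of all genes was 0.00. It was −0.11 with TMM, −0.10 with median-of-ratios and −0.13 with upper-quartile scaling. Scaled to the summed T cell markers it was −0.22, with all genes moved down by 0.11, and scaled to their median ratio it was 0.05, with all genes moved up by 0.15. Impdh2 was at −0.27 (interval −0.37 to −0.19), Paics at −0.17, Gmps at −0.16 and Umps at −0.14, while Cad was at 0.14 (0.09 to 0.19). The interval lay below 0 for 5 members, against 28% of the 13750 genes and 32.1% of the 9624, and above 0 for Cad and Atic, against 30.5% and 32.6%. Impdh2, Paics and Gmps stayed below 0 and Cad above 0 under all 5 scalings and both other constants. Their values nearest to 0 were −0.124, −0.018, −0.0094 and 0.023, and a kept sign again follows from the ratio as deposited. Ppat (−0.04), Pfas (0.02) and Dhodh (−0.10) had intervals that covered 0.

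**Figure D4:**
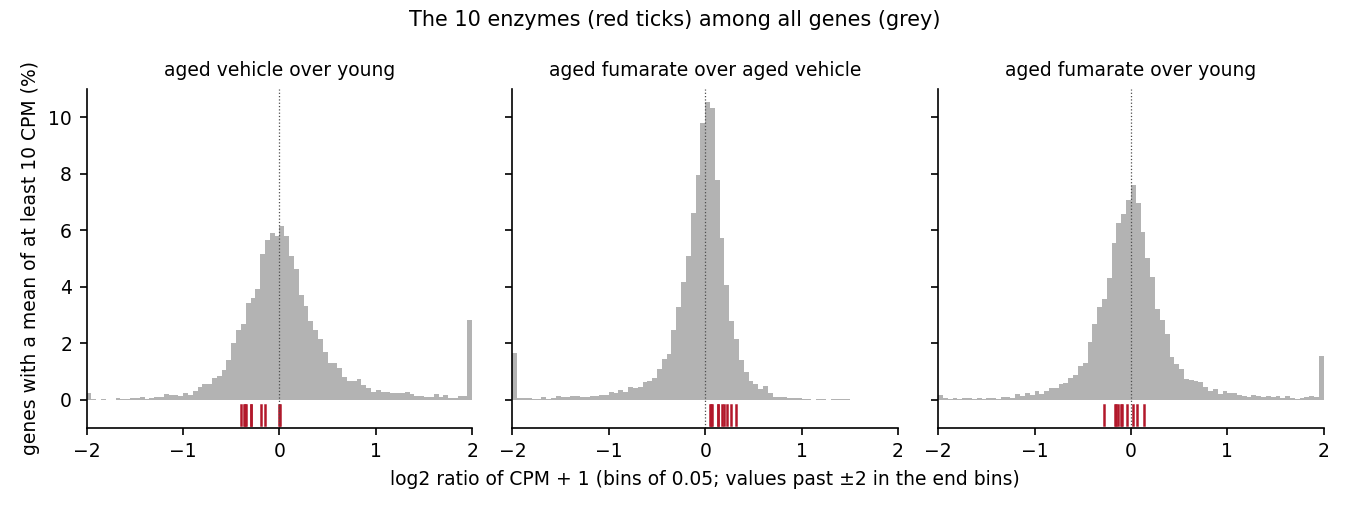
Share of the 9624 genes with a mean of at least 10 CPM in bins of the log2 ratio of CPM + 1, with the 10 enzymes as red ticks below. The ticks lie between −0.39 and 0.01 in aged vehicle over young and between 0.05 and 0.32 in aged fumarate over aged vehicle.

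The sequence before each start site was examined for short motifs. The occasion was that most members were lowest in the aged vehicle library in CPM as deposited, though not with scaling to T cell markers. RefSeq promoters (GRCm38.p6, the assembly of mm10), reaching from 250 bases before to 50 after the start, were at hand for 8 members, with those of Pfas and Dhodh not used here. CACGTG, the E-box that MYC with MAX can bind, was found in 3 of the 8 (Atic, Paics and Impdh2) and in 7.15% of all 32851 promoters. GGGCGG, a GC box, was found in 8 of 8 against 35.7%, and CCAAT in 4 of 8 (Atic, Paics, Impdh2 and Gart) against 37.4%. TTTCGCGC, an E2F-like site, was found in 0 of 8 against 0.323%, and TGATGNAA, read by ATF4, in 0 of 8 against 3.97%. Both strands were searched, and hits may overlap. Sites outside this window, such as further into a gene, were not searched, so a motif not found here may lie nearby. The promoters compared against were not matched for expression or base content, so these shares do not mark a trait of the 8 members. The stretches before the start that hold no exon of another gene are printed for a member with a low ratio of aged vehicle over young (Gart) and for the 2 level ones (Atic and Cad), with these motifs in capitals. In Atic 2 GC boxes on the other strand run into each other, and GENCODE places its start a few bases earlier.
Gart (chr16:91646973-91647222, minus strand): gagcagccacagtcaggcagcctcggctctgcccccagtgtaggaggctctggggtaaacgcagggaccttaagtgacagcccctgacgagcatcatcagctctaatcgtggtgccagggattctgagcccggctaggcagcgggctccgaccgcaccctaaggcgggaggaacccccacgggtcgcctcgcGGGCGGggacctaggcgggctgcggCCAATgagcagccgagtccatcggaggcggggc
Atic (chr1:71556906-71557155, plus strand): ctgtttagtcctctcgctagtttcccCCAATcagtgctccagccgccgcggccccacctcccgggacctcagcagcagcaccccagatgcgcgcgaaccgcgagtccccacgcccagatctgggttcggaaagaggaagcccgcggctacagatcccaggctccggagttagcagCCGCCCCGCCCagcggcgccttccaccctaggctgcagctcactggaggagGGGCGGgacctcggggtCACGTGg
Cad (chr5:31054624-31054779, plus strand): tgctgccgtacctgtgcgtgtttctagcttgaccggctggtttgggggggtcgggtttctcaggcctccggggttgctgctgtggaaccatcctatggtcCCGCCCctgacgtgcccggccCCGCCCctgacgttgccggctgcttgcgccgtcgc

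Gart held 1 GC box and 1 CCAAT, Cad held 2 GC boxes on the other strand, and Atic held 3 GC boxes, 1 CCAAT and 1 E-box. The E-box of Atic (71557149 to 71557154) lies directly before RefSeq's start but across the start given above (71557150). Positions are counted from RefSeq's start, which for Impdh2 lies further along than the start given above, so that its E-box falls inside the gene as the table places it. A match in these letters is a description and not a binding site.

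The other genes of nucleotide metabolism were read from lists. Of 8 genes that supply PRPP or carry the remaining purine steps, 1 was at least 1.5-fold higher in aged vehicle over young and none lower (median −0.04). The shares of all genes were 16.5% and 6.73%. The higher one was Adssl1, a muscle form of adenylosuccinate synthase, at 2.95, 5.79 and 1.95 CPM in the order used above. Prps2, which makes PRPP, was at 85.0, 67.8 and 71.7 CPM, and Prpsap2, a protein bound to that enzyme, at 29.7, 25.2 and 28.1 CPM. Prpsap2 has a near-identical pseudogene, so its level is uncertain. Adsl and Adss, added after their values were seen, were at 149, 135 and 155 CPM and at 142, 142 and 139 CPM.

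Genes of the folate pathway, which hands single carbons to Gart and Atic, had some larger ratios. Of 15 genes, 4 were at least 1.5-fold lower, against 6.73% of all genes, and 3 higher, against 16.5%, in aged vehicle over young (median −0.20). Mthfd1l, a mitochondrial formate-making enzyme, was at 240 CPM in the young, 135 CPM in the aged vehicle and 166 CPM in the aged fumarate library. Its log2 ratio of aged vehicle over young was −0.83. Shmt2 and Mthfd2, the mitochondrial enzymes ahead of it, were at 500, 285 and 332 CPM and at 304, 172 and 208 CPM and are named because they are in that count. Aldh1l2, which burns off the carbon unit, was at 8.71, 1.22 and 1.60 CPM, but it shares exons with the gene D10Wsu102e and its level is uncertain. Aldh1l1, its cytosolic relative, was at 2.37, 13.9 and 2.02 CPM, Ggh, which trims folates, at 8.59, 16.3 and 12.7 CPM, and Mthfd2l, a relative of Mthfd2, at 2.98, 5.97 and 5.20 CPM. Mthfd2 over Ppat, within a library, was 2.18 in the young, 1.59 in the aged vehicle and 1.54 in the aged fumarate library, so both aged libraries were below the young one with overlapping intervals.

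The list for CTP, thymidylate and deoxynucleotides had none of 9 genes past 1.5-fold in any comparison, against the shares of all genes given above. Its medians were −0.20 for aged vehicle over young and 0.13 for aged fumarate over aged vehicle. Rrm1, the large subunit of ribonucleotide reductase, was at 446, 336 and 379 CPM, and Rrm2, its small subunit made in S phase, at 356, 310 and 407 CPM. Dut, which removes dUTP, was at 260, 189 and 218 CPM, and Rrm2b, the small subunit of non-dividing cells, at 24.9, 19.2 and 25.8 CPM.

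Among 13 salvage genes, which recycle bases and nucleosides, the median of aged vehicle over young was −0.12. Of these, 1 was at least 1.5-fold higher, against 16.5% of all genes, and none lower, against 6.73%. The higher one was Slc29a2, a nucleoside transporter, at 6.78, 13.4 and 12.3 CPM. Hprt, which recovers hypoxanthine and guanine, was at 247, 175 and 226 CPM, Dck, which phosphorylates deoxycytidine, at 71.4, 50.9 and 56.7 CPM, and Tk2, the mitochondrial thymidine kinase, at 16.4, 11.4 and 11.8 CPM. Of 12 nucleotide kinases 3 were higher, against 16.5% of all genes, and 1 lower, against 6.73%, in aged vehicle over young (median 0.11). Among the higher ones, Ak1, an adenylate kinase, was at 1.76, 19.5 and 5.99 CPM, and Cmpk2, an interferon-induced kinase, at 7.47, 17.0 and 3.32 CPM. The lower one was Ak4, a hypoxia-induced kinase, at 89.1, 27.0 and 39.6 CPM. Ak4 has a near-identical pseudogene (at 4.92, 1.72 and 2.24 CPM), so its level is uncertain.

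Genes that break nucleotides down had the largest differences of these lists. Of 17 measured with a mean of at least 1 CPM, 9 were at least 1.5-fold higher and 1 lower in aged vehicle over young (median 0.74). The shares of all genes were 16.5% and 6.73%. In aged fumarate over aged vehicle 5 were lower, against 11.2% of all genes, and none higher, against 2.15% (median −0.26). Upp1, which splits uridine, was at 2.66 CPM in the young, 43.7 CPM in the aged vehicle and 35.3 CPM in the aged fumarate library. Both aged libraries thus stood far above the young one. Gda, guanine deaminase, was at 0.0976, 25.3 and 2.53 CPM, and Nt5e, the surface enzyme CD73 that makes adenosine, at 3.00, 15.5 and 8.30 CPM. Nt5c3, a pyrimidine nucleotidase known from red cells, was at 37.9, 87.8 and 36.2 CPM, with the aged vehicle library the high one. Pnp and Xdh, the other 2 of the 5 lower in aged fumarate over aged vehicle, split purine nucleosides and make urate. They were at 57.2, 114 and 73.9 CPM and at 17.7, 30.7 and 16.9 CPM. Samhd1, which cuts deoxynucleotides, was the 1 lower in aged vehicle over young, at 388, 242 and 255 CPM. The aged vehicle library was also the one with the highest markers of platelets, red cells, basophils and mast cells, and their part in these values was not tested.

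**Figure D5:**
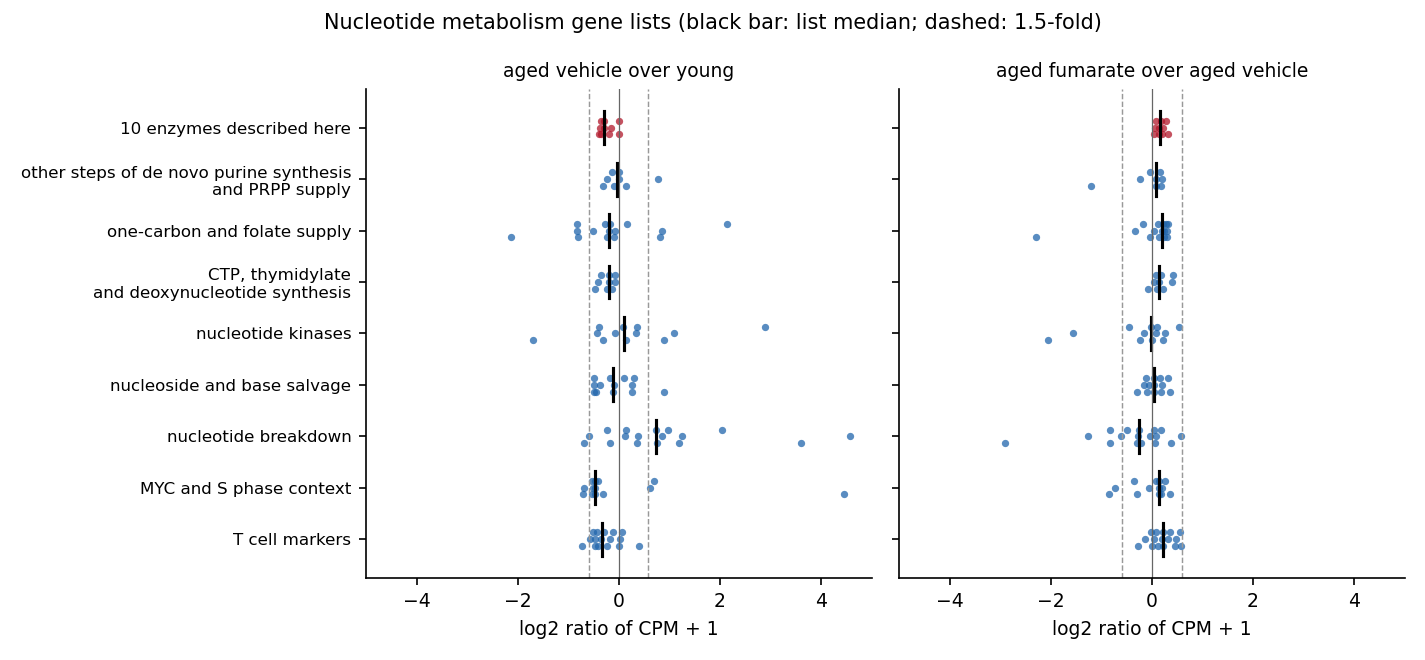
Log2 ratio of CPM + 1 for each gene of the nucleotide metabolism lists, the MYC and S phase list and the T cell markers, with list medians as black bars and 1.5-fold as dashed lines. The 10 enzymes (red) lie close together in both panels, while the breakdown list reaches from −0.68 to 4.58 in aged vehicle over young.

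The 5 genes whose pair of ratios (aged vehicle over young, aged fumarate over aged vehicle) lay nearest to the median pair of the 10 enzymes were Tpx2, Srsf10, Cct2, Cenpx and Gm7730. The measure was the distance between pairs over these 3 libraries, among 9614 other genes with a mean of at least 10 CPM. Within a distance of 0.1 lay 454 of these genes, so the pattern was not confined to the enzymes. The enzymes' median of −0.30 in aged vehicle over young lay below the lower quartile of genes with at least 10 CPM (−0.21). Their median of 0.15 in aged fumarate over aged vehicle lay above the upper quartile (0.12).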

How the data were processed

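RNA of 3 libraries, 1 a group, was read from a table whose deposited values are CPM despite a raw-count name: each column sums to 1000000. STAR, Partek and mm10 are named, per the submitters' processing notes, with versions and annotation not given in the sources used here. Depth was taken from the spacing of low values, which is 1 read. Within 0.02 reads, 58.5%, 65.6% and 68.2% of genes were at whole reads in the young, vehicle and fumarate tables, so no count model was fitted. Differences are log2 ratios of CPM + 1 over the whole table, with a limit of 1.5-fold and a minimum mean of 1 CPM. Exact 95% intervals (Clopper-Pearson for ratios, Poisson for levels) rest on estimated reads. They describe counting error only, because reads without molecular identifiers are not independent molecules. For a gene at 0 the limit is 3 reads: 0.0732 CPM (young), 0.174 CPM (aged vehicle) and 0.217 CPM (aged fumarate). Calls and intervals were tried on simulated whole reads with counting error alone. This checks the calculation and not how well it suits these libraries, where part of the values are not whole reads. Exon lengths (basic set), overlaps and copies (blastn) are from GENCODE M21, where all 10 members lie at the table's positions after its ends are moved back by 1 base. Promoters are RefSeq's. Some genes that the naming rule selects are not reported here.

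The members and lists were chosen with earlier results of these data known. Named genes are all members, up to 4 per list with the largest absolute ratio and at least 1 CPM, 2 per marker list with the highest CPM, and the 5 nearest in pattern. Adsl, Adss, Shmt2, Mthfd2, Mthfd2l, Pnp, Xdh, Samhd1, Cd2, Pcna, Mcm7 and Myc were named after their values were seen. Alternatives were added constants of 0.5 and 5 CPM, TMM, median-of-ratios, upper-quartile and T cell marker scaling, and limits of 0.32 and 1.00 on the log2 scale. Scaling to the median T cell marker ratio and adding the pseudogene to Impdh2 were chosen after seeing the data. Tools were scipy 1.17.1, numpy 2.4.6 and pandas 2.3.3 under Python 3.11.15, with figures drawn in matplotlib 3.10.9.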

Additional observations from a re-analysis of the deposited data

How the results depend on the processing

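The number of enzymes past 1.5-fold was 0 in each direction and comparison and stayed 0 under each alternative but 1. With a limit of 0.32 on the log2 scale, 4 were lower in aged vehicle over young (Ppat, Gart, Paics and Impdh2). The share of all genes past that limit was not worked out, and the lower quartile of the 13750 genes was −0.22. The summed log2 ratio of the 10 enzymes for aged vehicle over young was also −0.22. It was −0.28 with TMM, −0.27 with median-of-ratios, −0.32 with upper-quartile and −0.057 with summed T cell marker scaling. It was −0.25 with the Impdh2 pseudogene added, and 0.11, with the opposite sign, when scaled to the median T cell marker ratio. For aged fumarate over aged vehicle it was 0.17, and 0.21 with TMM, 0.21 with median-of-ratios and 0.24 with upper-quartile scaling, while the sign turned with summed (−0.11) and median (−0.0060) T cell marker scaling. For aged fumarate over young it was −0.05, and −0.082 with upper-quartile scaling, −0.17 with summed T cell marker scaling, −0.085 with the pseudogene added and 0.10, with the opposite sign, with the median T cell marker ratio. A scaling moves all genes alike by construction. Of 504 counts for the other lists, 455 stayed within 1.5 times their value. Among genes with a mean of at least 10 CPM in place of 1, 6.57% were lower and 1.43% higher past 1.5-fold in aged fumarate over aged vehicle. No paired analysis was possible because each group has 1 library. For the same reason no library could be left out. Depth limits Dhodh most, the member with the fewest reads.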

Other observations

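The MYC family, whose members drive many genes of nucleotide synthesis, was read from a list of 13 MYC and S phase genes. Mycn was at 1.73 CPM in the young, 58.9 CPM in the aged vehicle and 32.1 CPM in the aged fumarate library, a log2 ratio of 4.45 for aged vehicle over young. The aged vehicle library also had the highest markers of platelets, red cells, basophils and mast cells. Which cells held the Mycn reads is not known, and the part of these other cells was not tested. Myc itself, added after its value was seen, was at 418, 313 and 332 CPM and remained the more abundant row in each library. Max, the partner protein, was at 147, 105 and 82.3 CPM. Mxd1 and Mxd4, which compete with MYC for that partner, were at 33.3, 54.8 and 44.2 CPM and at 18.4, 28.7 and 17.0 CPM. Of the 13 genes 2 were at least 1.5-fold lower (Pcna and Mcm7) and 3 higher (Mycn, Mxd1 and Mxd4) in aged vehicle over young. The shares of all genes were 6.73% and 16.5%. In aged fumarate over aged vehicle 2 were lower (Mycn and Mxd4), against 11.2% of all genes, and none higher, against 2.15%.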
